A study of Mus musculus with 22 samples.

Results

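The anti-IL-2 response of donor CD4 T cells was compared between gut and spleen as a difference of differences, that is, the anti-IL-2 minus IgG difference in gut minus the same difference in spleen. It was computed inside each batch that holds all 4 groups, which left 8 of the 22 libraries, 4 in batch 181212 and 4 in batch 190306. The 2 batches are given apart throughout, with a check of whether their signs agree. A positive value means that a transcript was higher, or less low, after anti-IL-2 in gut than in spleen. For results of the earlier batches and of batch 190306, rose and fell refer to this value. They do not mean a rise or fall with anti-IL-2 inside a tissue. Values are differences of log2 CPM (CPM, the count scaled to library size with TMM factors), and SE is the standard error of a fitted value.

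In the study, spleen and bone marrow cells of WT C57BL/6 donors were transferred into WT BALB/C recipients after lethal irradiation. Recipients were given an anti-IL-2 monoclonal antibody or control IgG on alternate days between day 0 and day 6. Donor CD4+ T cells were sorted from the colon, called gut in the labels, and from the spleen on day 7. The 4 groups were gut anti-IL-2, gut IgG, spleen anti-IL-2 and spleen IgG, each with 1 CD4 library per batch. Batch 181201 has 3 CD4 libraries, gut anti-IL-2, spleen anti-IL-2 and spleen IgG, and no gut IgG library was analysed from it. Age and sex of the animals are not given in the sources used here, nor is it stated whether libraries of a batch share animals or pools, so p-values measure only the spread between libraries, which may be technical. Control recipients carry the same irradiation and graft as treated ones. The labelled anti-IL-2 minus IgG difference of Il2ra, Socs2, Deptor and many other genes had opposite signs in batches 181212 and 190306, in both tissues. The labels were used as given, and every direction of batch 190306 rests on them.

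IL-2 is a growth factor made by activated T cells. It binds a receptor of alpha, beta and common gamma chains and activates STAT5, which turns on Il2ra, Cish, Socs2 and other feedback and effector genes. Regulatory T cells depend on it, and it favours cytotoxic effector genes over the follicular helper program. After an allogeneic transplant, donor CD4 T cells expand in the spleen and enter the gut, where they take part in graft-versus-host disease.

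The 8 libraries held between 15598591 and 23978193 counts and between 14042 and 14965 gene names with a count. The summed level of 12 T cell genes, among them Cd3e, Cd4 and Lck, lay between 9298 and 11634 CPM in all 8 (marker levels are CPM without TMM scaling), and that of Cd8a and Cd8b1 between 9.30 and 15.7. Marker sums of other cell types stood apart in a few libraries. Adipocyte markers (6 of 6 genes in the table) reached 50.3 and pancreas markers (8 of 8) 46.9 CPM in gut anti-IL-2 cells of batch 181212, against 1.02 and 0.591 in gut IgG cells of that batch. Macrophage markers (16 of 16) reached 348 in spleen IgG cells of batch 190306 and lay between 61.1 and 114 in the other 7, and neutrophil markers (7 of 7) reached 54.3 in spleen anti-IL-2 cells of batch 190306 and lay between 1.21 and 2.67 in the others. The plasma cell markers were led by Jchain, with 151 CPM in gut anti-IL-2 and 19.1 CPM in gut IgG cells of batch 181212, and 22.5 CPM in gut anti-IL-2 and 189 CPM in gut IgG cells of batch 190306. The other sums were at most 168 CPM for dendritic cells (7 genes), 105 for MHC class II (6), 50.7 for epithelium (11), 30.7 for NK cells (4), 9.38 for fibroblasts (7), 3.95 for B cells (7) and 2.18 for erythroid cells (4). Itgax alone made 167 CPM of the highest dendritic sum, in gut anti-IL-2 cells of batch 190306, where each other dendritic marker had at most 0.334 CPM. Klrb1c alone made the highest NK cell sum, in gut IgG cells of batch 181212. In the 8 libraries 1 dendritic, 1 NK cell, 1 erythroid and 1 pancreas marker had no count. CD4 libraries of batch 181201, which enter the fit of all 22 libraries, held such transcripts too. Spleen anti-IL-2 cells there had 512 CPM of macrophage, 126 of MHC class II and 41.7 of erythroid markers. Gut anti-IL-2 cells there had 93.1 CPM of epithelium, 19.4 of pancreas and 12.7 of adipocyte markers. The part of these other cells in the results was not tested, and counts given without a library do not separate it. In bulk RNA, fewer cells of a type and less RNA per cell cannot be told apart.

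Immediate early genes, which are transcribed within minutes of a stimulus, mostly had a negative gut minus spleen difference in both batches, 17 of 25. Dusp1, a phosphatase that switches off MAP kinases, Jun, a subunit of the AP-1 transcription factor, and Zfp36, which promotes decay of cytokine mRNAs, fell in gut relative to spleen, and they were the 3 genes that passed in the mean of both batches in edgeR. Their promoters are shown with that of Cish, a STAT5 target described further on. Dusp1, Jun and Zfp36 had a negative difference of differences in both batches with a gut IgG library, while Cish had opposite signs there. In spleen cells of the batch without a gut IgG library, none of these 3 genes was higher with anti-IL-2, so the promoters are not tied to a response seen in every batch. Sequences are from RefSeq on GRCm38.p6, from 250 bases before to 50 bases after the start, 5′ to 3′ on the gene's strand, with motif matches in capitals. Dusp1 is at chr17:26508423-26508722 on the minus strand, Zfp36 at chr7:28379179-28379478 on the minus strand, and Cish at chr9:107296409-107296708 on the plus strand.
Dusp1: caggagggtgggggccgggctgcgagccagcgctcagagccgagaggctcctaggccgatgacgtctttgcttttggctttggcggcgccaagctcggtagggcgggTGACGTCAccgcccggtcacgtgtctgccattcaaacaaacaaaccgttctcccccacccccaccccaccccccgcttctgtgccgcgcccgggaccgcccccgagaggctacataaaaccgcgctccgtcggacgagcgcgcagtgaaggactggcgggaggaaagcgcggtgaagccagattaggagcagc
Zfp36: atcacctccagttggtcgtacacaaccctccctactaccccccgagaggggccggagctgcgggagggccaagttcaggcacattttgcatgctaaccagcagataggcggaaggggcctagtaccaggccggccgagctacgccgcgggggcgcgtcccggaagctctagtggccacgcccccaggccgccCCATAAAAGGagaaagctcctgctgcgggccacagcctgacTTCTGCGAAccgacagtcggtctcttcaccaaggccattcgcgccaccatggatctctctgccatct
Cish: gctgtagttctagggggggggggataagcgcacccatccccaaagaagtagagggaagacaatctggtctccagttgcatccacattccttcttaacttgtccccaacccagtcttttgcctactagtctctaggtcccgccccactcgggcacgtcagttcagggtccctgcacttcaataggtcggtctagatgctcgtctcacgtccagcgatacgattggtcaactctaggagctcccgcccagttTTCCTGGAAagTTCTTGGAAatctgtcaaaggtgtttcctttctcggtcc

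The capitals mark TGACGTCA, the cyclic AMP response element, in Dusp1. In Zfp36 they mark a serum response element and a TTCNNNGAA, the spacing bound by STAT factors, and in Cish a pair of TTCNNNGAA. Both strands were searched. Of 27025 mouse promoters of the same length, 1.88% held TGACGTCA, 8.47% TTCNNNGAA and 1.57% a serum response element. The 300 bases of Jun held no match to these motifs or to TGACTCA. Of the 25 immediate early genes, 20 had a promoter in the table and 3 of those held TGACGTCA, and of 49 STAT5 target genes 38 had a promoter and 6 held TTCNNNGAA. These are matches of letters and not measured binding.

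In batch 181212, Dusp1 stood at 431 CPM in gut anti-IL-2 and 611 CPM in gut IgG cells, and at 128 CPM in spleen anti-IL-2 and 36.5 CPM in spleen IgG cells. In batch 190306 Dusp1 stood at 149 CPM in gut anti-IL-2 and 582 CPM in gut IgG cells, and at 65.1 CPM in spleen anti-IL-2 and 46.7 CPM in spleen IgG cells. In both batches the gut library was lower with anti-IL-2 and the spleen library was higher, and both gut libraries lay above both spleen libraries. The treatment difference was -0.50 in gut and 1.81 in spleen in batch 181212, and -1.96 in gut and 0.48 in spleen in batch 190306. The difference of differences was -2.32 in batch 181212 and -2.44 in batch 190306, with a mean of -2.38 ± 0.12 (SE; edgeR quasi-likelihood test, adjusted p = 0.0126). Dusp1 lies on chromosome 17 of mm10 and overlaps Ergic1 on the other strand, and the strand setting of the counting is not given.

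Jun had 708 CPM in gut anti-IL-2 and 999 CPM in gut IgG cells of batch 181212, with 202 CPM in spleen anti-IL-2 and 33.3 CPM in spleen IgG cells. In batch 190306 its levels were 365 CPM in gut anti-IL-2 and 1034 CPM in gut IgG cells, with 165 CPM in spleen anti-IL-2 and 86.6 CPM in spleen IgG cells. The spleen IgG library was the lowest of the 4 in each batch. The difference of differences was -3.10 and -2.43, with a mean of -2.76 ± 0.18 (edgeR, adjusted p = 0.0318). Levels of Zfp36 were 665 CPM in gut anti-IL-2 and 1196 CPM in gut IgG cells of batch 181212, with 279 CPM in spleen anti-IL-2 and 140 CPM in spleen IgG cells. For batch 190306 they were 297 CPM in gut anti-IL-2 and 924 CPM in gut IgG cells, with 300.4 CPM in spleen anti-IL-2 and 259 CPM in spleen IgG cells. Gut was lower and spleen higher with anti-IL-2 in both batches, by little in spleen in batch 190306. The difference of differences of Zfp36 was -1.85 in each batch, with a mean of -1.85 ± 0.14 (edgeR, adjusted p = 0.0460).

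These 3 were 0.0239% of the 12544 genes tested for the mean of both batches, all lower and 0 higher, and 391 genes had an unadjusted p under 0.05. DESeq2 on the same design called 18 genes, 2 higher and 16 lower. Of these 18, 7 belong to the immediate early list, which holds 25 of the 12544 genes. All 3 genes passed in that fit too. The DESeq2 test takes no account of the 2 residual degrees of freedom, so its p-values may understate the error. Of the 25 immediate early genes, 17 had a negative difference of differences in both batches, 2 a positive one in both and 6 opposite signs. Their median was -0.84 in batch 181212 and -1.12 in batch 190306, against medians of 0.0050 and 0.01 over all genes tested.

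The same group reached its negative values by different routes in the batches. In batch 181212 its median treatment difference was -0.22 in gut and 0.73 in spleen, so the larger part lay in spleen. In batch 190306 it was -1.27 in gut and 0.21 in spleen. Batch 181201, which has no gut IgG library here, had a median spleen difference of -0.32, and Dusp1 had 138 CPM in spleen anti-IL-2 against 158 CPM in spleen IgG cells there. With that batch in the estimate, none of the 3 passed: Dusp1 in the earlier batches was at -1.31 ± 1.26 (edgeR, adjusted p = 0.653). Leaving out any 1 of the 8 CD8 libraries of these batches, which share in the estimate of the spread, left 1 called gene. Leaving out 1 CD4 library of batch 181212 made the estimate that of batch 190306, and leaving out 1 of batch 190306 the reverse. The spread then rested on CD8 libraries alone, so genes passing in these runs do not test the CD4 result.

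Other immediate early and stress genes had negative values in both batches but did not pass in edgeR. In DESeq2, Ppp1r15a, Junb, Atf4, Csrnp1 and Ier2 of those named here passed as lower, with adjusted p between 2.1e-15 and 0.0125, and Fcer1g passed as higher (adjusted p = 0.0442). These p-values carry the limit of the DESeq2 test given above. Ppp1r15a, which restores translation after stress, was at -2.61 and -1.89 (mean -2.25 ± 0.22, edgeR adjusted p = 0.174), and Junb, another AP-1 subunit, at -1.46 and -1.73. Fos, the partner of Jun, was at -2.95 and -1.09, and Nr4a1, an orphan nuclear receptor induced by T cell receptor signals, at -0.67 and -2.10. Atf4, the transcription factor of the integrated stress response, was at -0.91 and -0.75, Csrnp1, a nuclear protein, at -1.11 and -0.90, and Ier2 at -0.84 and -0.72. Among the 10 genes with the smallest p, Ciart, a circadian repressor, was at -2.57 and -2.78, and Fcer1g, the Fc receptor gamma chain of myeloid and NK cells, at 2.11 and 2.77 with at most 7.23 CPM in any of the 8 libraries. Egr2 and Egr3, targets of calcium signalling, did not follow the group: Egr2 was at -0.67 in batch 181212 and 2.26 in batch 190306, and Egr3 at 0.31 and 1.63. Hspa1a, a heat shock protein gene, stood apart with anti-IL-2 in batch 181212 and did not pass in any fit. It had 114 CPM in gut anti-IL-2 and 1.33 CPM in gut IgG cells of batch 181212, with 70.2 CPM in spleen anti-IL-2 and 2.37 CPM in spleen IgG cells. In batch 190306 the 4 libraries lay between 7.01 and 18.6 CPM. Its part in the immediate early result was not tested. Junb overlaps Prdx2, Ppp1r15a overlaps Tulp2 and Ciart overlaps C920021L13Rik on the other strand, and Csrnp1 overlaps Cx3cr1 on the same strand.

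**Figure D1:**
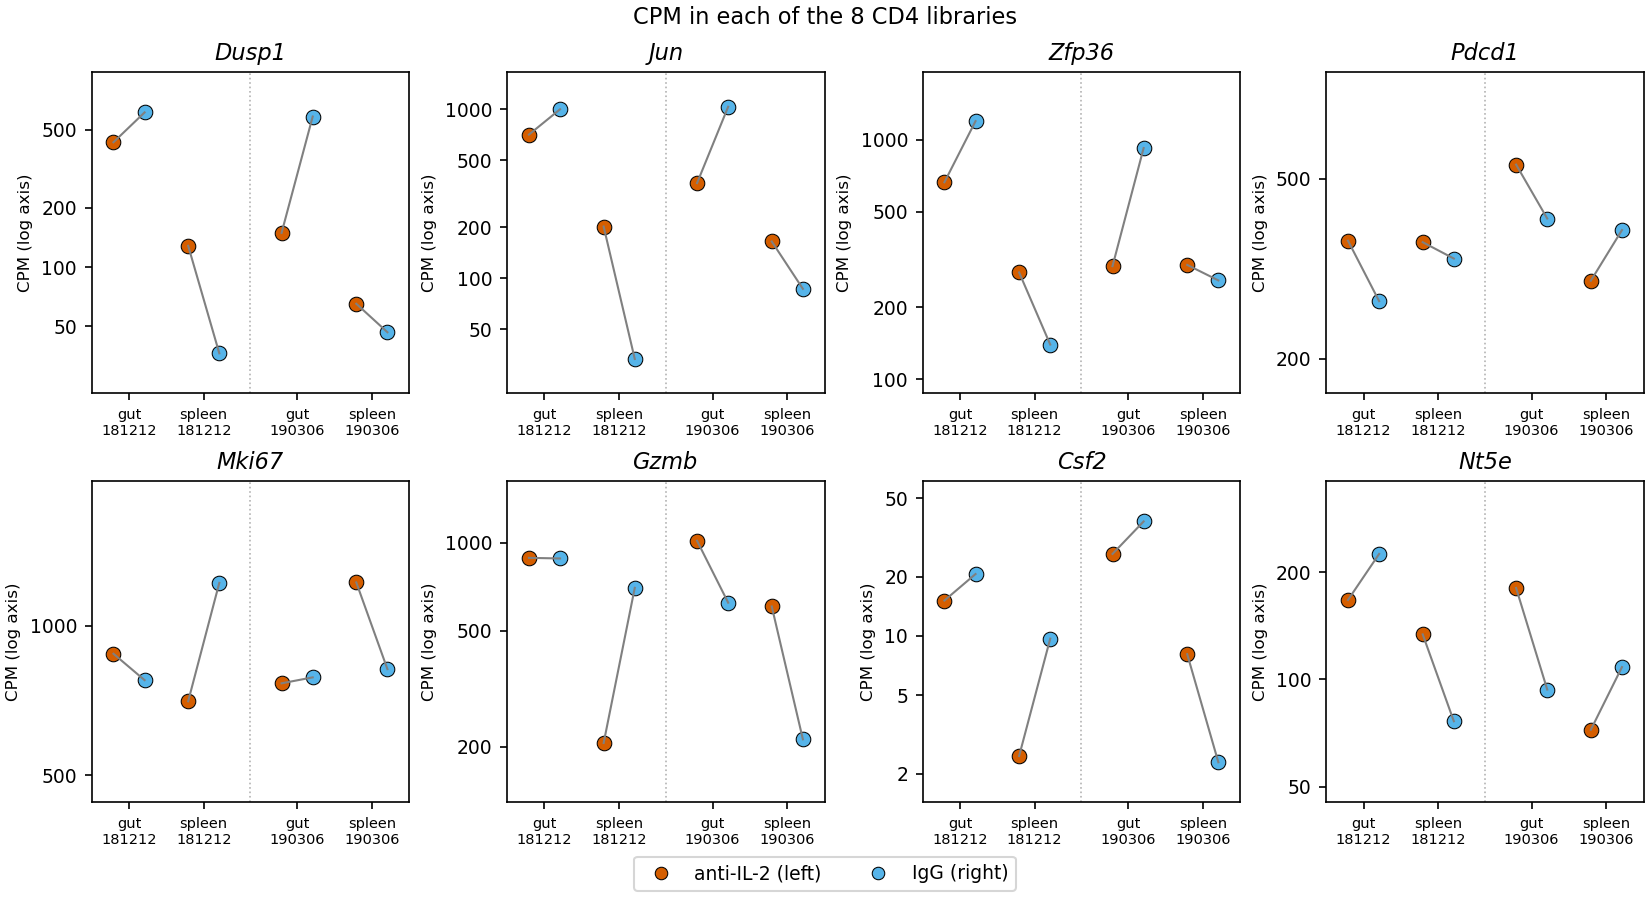
CPM of 8 genes in each of the 8 CD4 libraries, on log axes. Each line joins the anti-IL-2 library (left) to the IgG library (right) of a tissue and batch, with no error because each point is 1 library. Dusp1, Jun and Zfp36 slope upwards to IgG in gut in both batches and downwards in spleen, while the spleen lines of Mki67, Gzmb, Csf2 and Nt5e turn round between batches.

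Few genes passed both in the earlier batches and in batch 190306. These were separate contrasts of the same fit and share the spread of each gene, so they are not independent. All 22 libraries entered a fit in which batches 181201 and 181212 share their group means and batch 190306 has its own. In the earlier batches 710 of 12841 genes passed (5.53%), 449 higher (3.5%) and 261 lower (2.03%) in gut relative to spleen. In batch 190306, where each group has 1 library and the spread comes from the earlier batches, 31 passed (0.241%), 19 higher (0.148%) and 12 lower (0.0935%). Without the gut anti-IL-2 CD4 library of batch 181212 the earlier count was 275, without the spleen anti-IL-2 CD4 library of batch 181201 326, and without the gut anti-IL-2 CD4 library of batch 181201 456. The count of batch 190306 was 10 without either of those gut libraries, and 17 or 15 without the spleen anti-IL-2 CD8 library of batch 181201 or 181212.

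Of the 31 genes, 15 passed in the earlier batches as well, 2 with the same sign and 13 with the opposite sign. The 2 were listed after their values were seen. Sema7a, a membrane-anchored semaphorin of activated T cells, had 146 CPM in gut anti-IL-2 and 114 CPM in gut IgG cells of batch 181212, with 73.2 CPM in spleen anti-IL-2 and 82.1 CPM in spleen IgG cells. In batch 190306 Sema7a had 210 CPM in gut anti-IL-2 and 125 CPM in gut IgG cells, with 78.5 CPM in spleen anti-IL-2 and 95.6 CPM in spleen IgG cells. The anti-IL-2 library was the higher in gut and the lower in spleen in both batches. The fitted difference of differences was 0.58 ± 0.10 in the earlier batches (edgeR, adjusted p = 0.00411) and 1.03 ± 0.12 in batch 190306 (adjusted p = 0.00401).

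Pdcd1, which encodes the inhibitory receptor PD-1, was the other. It had 365 CPM in gut anti-IL-2 and 269 CPM in gut IgG cells of batch 181212, with 362 CPM in spleen anti-IL-2 and 333 CPM in spleen IgG cells. In batch 190306 Pdcd1 had 538 CPM in gut anti-IL-2 and 409 CPM in gut IgG cells, with 298 CPM in spleen anti-IL-2 and 385 CPM in spleen IgG cells. Gut cells had more Pdcd1 with anti-IL-2 in both batches, while the spleen libraries differed in opposite directions. The fitted values were 0.37 ± 0.10 in the earlier batches (edgeR, adjusted p = 0.0436) and 0.77 ± 0.12 in batch 190306 (adjusted p = 0.0287). In the mean of both batches neither gene passed (edgeR, adjusted p = 0.605 for Sema7a and 1 for Pdcd1).

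Over all expressed genes the signs of the 2 batches disagreed more often than they agreed. Of the 9596 genes whose log2 CPM averaged 2 or more over the 8 libraries, 42.2% (4053) had the same sign in both, 2096 positive and 1957 negative. Positive in batch 181212 and negative in batch 190306 were 2692, and 2851 were the reverse. Of the 364 genes with a size of at least 0.5 in both batches, 110 (30.2%) agreed. Of the 45 with a size of at least 1 in both, 23 (51.1%) agreed, and 22 of those 23 were negative. Among the 686 of these genes that passed in the earlier batches, 148 (21.6%) had the same sign in the 4-library values of both batches.

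Described across the 9596 genes, which are not independent replicates, the difference of differences of batch 181212 and that of batch 190306, which share no library, had a Pearson r of -0.176. Within a batch the gut and the spleen treatment difference were related with r = 0.540 in batch 181212 and 0.573 in batch 190306. Between batches 181212 and 190306 r was -0.521 for the gut difference and -0.745 for the spleen difference. The spleen difference of batch 181201 and that of batch 181212 were related positively (r = 0.653), so it was batch 190306 that ran opposite. The SD over genes was 0.37 in gut and 0.42 in spleen in batch 181212, and 0.36 in gut and 0.34 in spleen in batch 190306, all in log2 CPM.

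**Figure D2:**
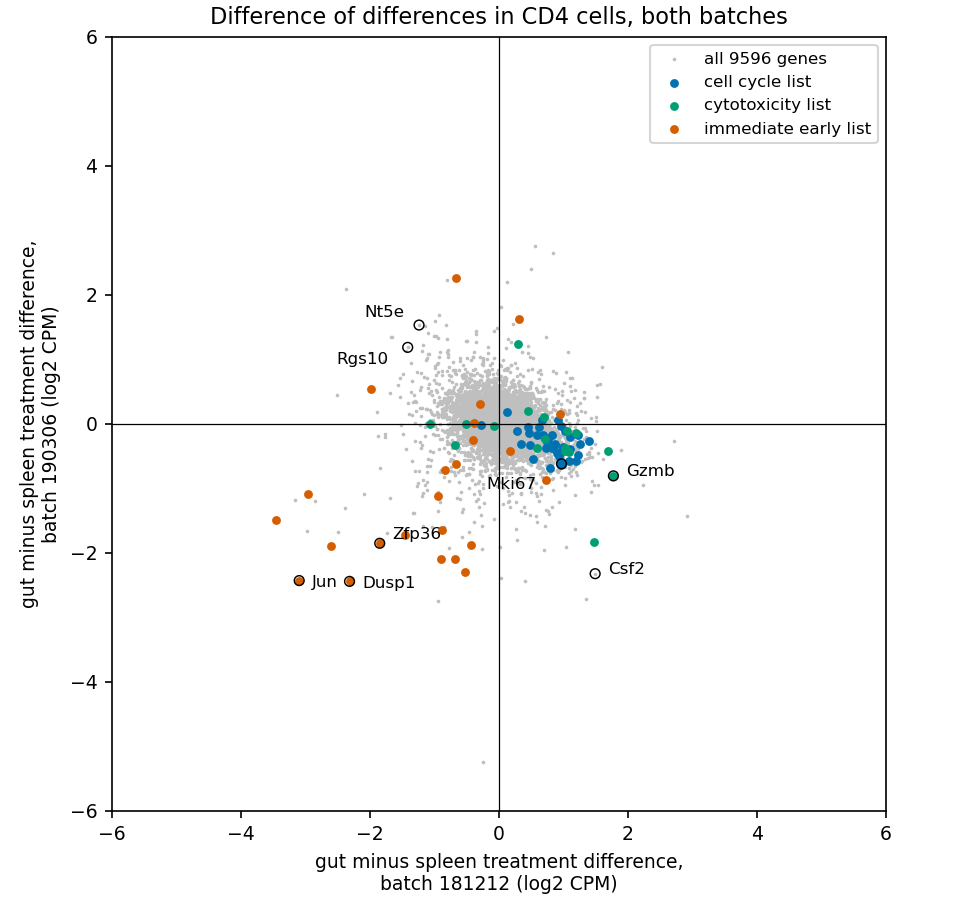
Gut minus spleen treatment difference in batch 181212 (horizontal) and batch 190306 (vertical), both in log2 CPM, for 9596 genes. Each point is 1 gene. Immediate early genes (orange) extend to the lower left, where both batches are negative, and cell cycle genes (blue) lie to the lower right, positive in batch 181212 and negative in batch 190306.

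Medians of genes that responded in a spleen pair used in neither batch value showed the same turn. Batch 181201 gave 135 genes higher and 184 genes lower in spleen anti-IL-2 than in spleen IgG cells by at least 1 in log2 CPM, a choice made after seeing the data. The 135 genes had a median treatment difference of 0.73 in gut and 1.33 in spleen in batch 181212, and of -0.81 in gut and -1.08 in spleen in batch 190306. Their median difference of differences was -0.39 in batch 181212 (28.1% positive) and 0.15 in batch 190306 (61.5% positive). The 184 genes had medians of -0.36 in gut and -1.07 in spleen in batch 181212, and of 0.48 in gut and 0.88 in spleen in batch 190306. Their median difference of differences was 0.71 in batch 181212 (85.9% positive) and -0.38 in batch 190306 (19.0% positive), and 143 of them (77.7%) had opposite signs. In each batch the gut median had the sign of the spleen median and was smaller. The genes were chosen in spleen, so the set favours genes that respond there, and a choice in gut could not be made because batch 181201 has no gut IgG library here.

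**Figure D3:**
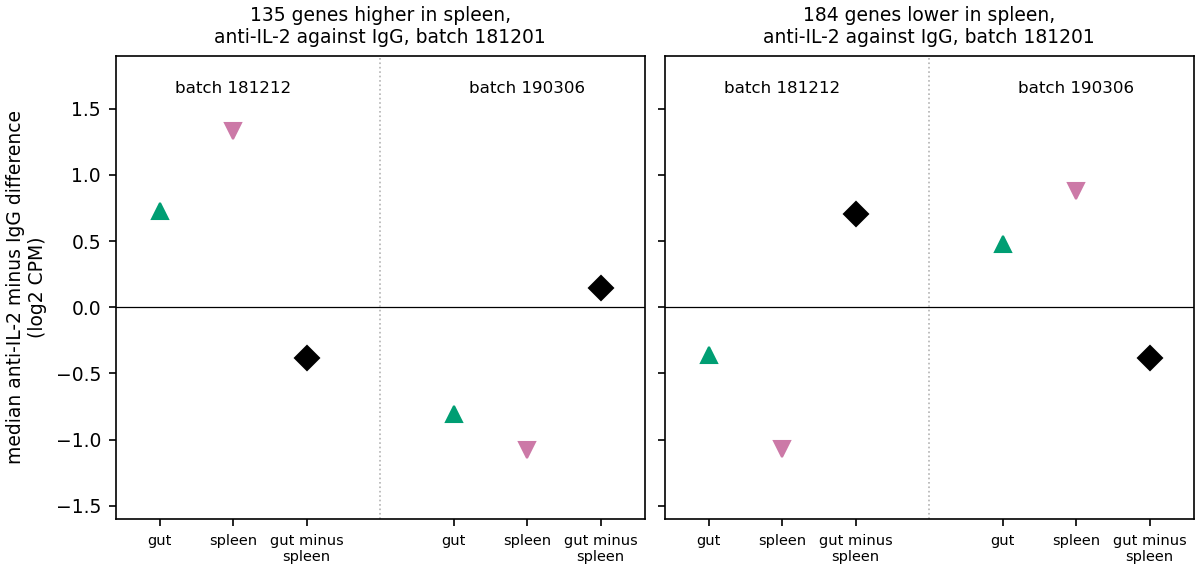
Median anti-IL-2 minus IgG difference (log2 CPM) in gut (triangles up), in spleen (triangles down) and their difference (diamonds), for 135 genes higher (left) and 184 genes lower (right) in spleen anti-IL-2 cells of batch 181201. In both batches the gut median lies between 0 and the spleen median, and the diamonds change side with the batch.

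The disagreement between batches was itself tested as the difference of differences of the earlier batches minus that of batch 190306. It passed for 532 genes (4.14%), 328 higher (2.55%) and 204 lower (1.59%). The count was 312 without the gut anti-IL-2 CD4 library of batch 181212 and 350 without the spleen anti-IL-2 CD4 library of batch 181201. The direction of the labelled treatment difference and the batch change together, so their parts in the disagreement cannot be told apart. An exchange of the treatment labels within batch 190306 would turn the sign of each of its differences of differences: Dusp1, Jun and Zfp36 would then have opposite signs in the batches, and most cell cycle genes the same sign. Whether the labels are exchanged was not tested.

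Cell cycle genes were higher in gut relative to spleen in the earlier batches and mostly negative in batch 190306. In the earlier batches 32 of 40 passed as higher in gut relative to spleen, against 3.5% of all genes, and 0 as lower. The disagreement between batches passed for 27 of the 40, all higher in the earlier batches, against 2.55% of all genes. In the 4-library values, 39 were positive in batch 181212 and 3 in batch 190306. Pcna, the DNA polymerase clamp, was the exception in batch 181212 (-0.27), and Gins2, Ccne1 and Ccne2 were those above 0 in batch 190306 (0.07, 0.19 and 0.05).

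The list median was 0.87 in batch 181212, made of 0.24 in gut and -0.59 in spleen. In batch 190306 it was -0.31, made of 0.14 in gut and 0.49 in spleen. Both gut medians were therefore above 0 and small, and the spleen median changed sign. Mki67, a marker of cycling cells, had 879 CPM in gut anti-IL-2 and 778 CPM in gut IgG cells of batch 181212, with 705 CPM in spleen anti-IL-2 and 1222 CPM in spleen IgG cells. In batch 190306 Mki67 had 766 CPM in gut anti-IL-2 and 788 CPM in gut IgG cells, with 1224 CPM in spleen anti-IL-2 and 818 CPM in spleen IgG cells. The highest library was spleen IgG in batch 181212 and spleen anti-IL-2 in batch 190306. The disagreement for Mki67 was 1.54 ± 0.18 (edgeR, adjusted p = 0.000621).

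Top2a, the topoisomerase of dividing cells, rose in the earlier batches by 1.04 ± 0.11 in gut relative to spleen (edgeR, adjusted p = 0.000249) and was at -0.39 in batch 190306. Tk1, thymidine kinase, Cdk1, the mitotic kinase, and Mcm5, a helicase subunit of the replication fork, also rose in the earlier batches, by 1.24, 0.95 and 0.88. Their 190306 values were -0.28, -0.31 and -0.33, and none of these passed. Gut anti-IL-2 cells of batch 181201 also held adipocyte and pancreas transcripts (12.7 and 19.4 CPM). The counts that follow therefore do not test the part of those cells. Without the gut anti-IL-2 CD4 library of batch 181212, which held the adipocyte and pancreas transcripts, 22 of the 40 passed in the earlier batches and 18 in the disagreement, and in batch 181212 alone 20 passed.

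Il2ra, Cish and Socs2 had treatment differences of the same sign in both tissues of a batch, and that sign turned round between batches. Il2ra, the alpha chain of the receptor, had 93.2 CPM in gut anti-IL-2 and 201 CPM in gut IgG cells of batch 181212, with 61.0 CPM in spleen anti-IL-2 and 254 CPM in spleen IgG cells. In batch 190306 Il2ra had 352 CPM in gut anti-IL-2 and 119 CPM in gut IgG cells, with 224 CPM in spleen anti-IL-2 and 65.9 CPM in spleen IgG cells. Both tissues had less with anti-IL-2 in batch 181212 and more in batch 190306. The difference of differences was 0.94 in batch 181212 and -0.20 in batch 190306, and it passed in the earlier batches (0.93 ± 0.18, edgeR adjusted p = 0.0166) but not in the disagreement (adjusted p = 0.0616).

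Cish, a STAT5-induced inhibitor of cytokine signalling, had 215 CPM in gut anti-IL-2 and 311 CPM in gut IgG cells of batch 181212, with 34.6 CPM in spleen anti-IL-2 and 86.2 CPM in spleen IgG cells. In batch 190306 Cish had 509 CPM in gut anti-IL-2 and 291 CPM in gut IgG cells, with 91.4 CPM in spleen anti-IL-2 and 38.1 CPM in spleen IgG cells. All gut libraries lay above all spleen libraries. Its difference of differences was 0.78 and -0.46, and the disagreement was 1.37 ± 0.25 (edgeR, adjusted p = 0.00992). Socs2, a further STAT5-induced inhibitor, rose by 1.12 ± 0.26 in the earlier batches (edgeR, adjusted p = 0.0226) and was at 0.03 ± 0.35 in batch 190306. Its disagreement did not pass (adjusted p = 0.198). Il2rb, the beta chain shared with IL-15, was at 0.41 and 0.17, Socs1 at -0.11 and 0.50, and Bcl2, a survival factor, at -0.43 and 0.41, and none of these passed. Il2 itself had at most 8.19 CPM and overlaps Adad1 on the other strand, and Bcl2 overlaps Mir3473f on the same strand.

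Of the 48 STAT5 target genes tested, 12 rose and 1 fell in gut relative to spleen in the earlier batches, against 3.5% and 2.03% of all genes. Some of those that rose, such as Il2ra, were lower with anti-IL-2 in both tissues of batch 181212. In batch 190306, 0 rose and 1, Il18r1, a chain of the IL-18 receptor, fell (-0.54, edgeR adjusted p = 0.0442), against 0.148% and 0.0935% of all genes. The disagreement passed for 10, of which 9 were higher and 1 lower in the earlier batches, against 2.55% and 1.59% of all genes. The list median was 0.25 in batch 181212 and -0.13 in batch 190306. The members that rose included Prdm1, the transcription factor Blimp-1, Bcl2l1, which encodes the survival factor Bcl-xL, Furin, a proprotein convertase, Hopx and Tnfrsf9, the costimulatory receptor 4-1BB, and the member that fell was Dusp6, a phosphatase of ERK kinases. Without the gut anti-IL-2 CD4 library of batch 181212 the earlier count that rose was 5, without the spleen anti-IL-2 CD4 library of batch 181201 it was 7, and in batch 181212 alone it was 4.

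Cytotoxic effector genes mostly had opposite signs in the batches as well, with a smaller median in batch 190306. The list median was 0.71 in batch 181212 and -0.18 in batch 190306, and 10 members were positive in the first and negative in the second. Of 18 tested, 10 rose and 1 fell in the earlier batches, against 3.5% and 2.03% of all genes. The disagreement passed for 8, all higher in the earlier batches, against 2.55% of all genes. Gzmb, the granule protease granzyme B, had 888 CPM in gut anti-IL-2 and 884 CPM in gut IgG cells of batch 181212, with 206 CPM in spleen anti-IL-2 and 701 CPM in spleen IgG cells. In batch 190306 Gzmb had 1017 CPM in gut anti-IL-2 and 624 CPM in gut IgG cells, with 605 CPM in spleen anti-IL-2 and 212 CPM in spleen IgG cells. The gut libraries of batch 181212 hardly differed, so the whole of that difference of differences lay in spleen. The values were 1.77 and -0.81, with a disagreement of 2.65 ± 0.25 (edgeR, adjusted p = 0.000621).

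Perforin, encoded by Prf1, rose by 0.90 ± 0.11 in the earlier batches (edgeR, adjusted p = 0.000677), and Serpinb9, an inhibitor of granzyme B, by 1.06 ± 0.13. Fasl, the death ligand, Klrk1, which encodes NKG2D, and Nkg7 rose by 0.60, 0.86 and 0.58, while Lamp1, a lysosomal membrane protein, fell by 0.52. None of these passed in batch 190306. Gzma, granzyme A, was positive in both batches, at 0.29 in batch 181212 and 1.24 in batch 190306, and did not pass in the earlier batches or in batch 190306. Without the gut anti-IL-2 CD4 library of batch 181212, 6 members rose in the earlier batches, and in batch 181212 alone 6 did.

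Among cytokine genes Csf2 passed in each batch set with opposite signs. Csf2, which encodes GM-CSF, a cytokine of inflammatory T cells, had 15.1 CPM in gut anti-IL-2 and 20.6 CPM in gut IgG cells of batch 181212, with 2.46 CPM in spleen anti-IL-2 and 9.69 CPM in spleen IgG cells. In batch 190306 Csf2 had 26.1 CPM in gut anti-IL-2 and 38.2 CPM in gut IgG cells, with 8.08 CPM in spleen anti-IL-2 and 2.28 CPM in spleen IgG cells. The gut difference was negative in both batches and of similar size (-0.44 and -0.55), and the spleen difference was -1.94 in batch 181212 and 1.78 in batch 190306. Csf2 passed in the earlier batches (1.64 ± 0.34, edgeR adjusted p = 0.0139), in batch 190306 (-2.37 ± 0.42, adjusted p = 0.0432) and in the disagreement (4.01 ± 0.54, adjusted p = 0.00136).

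Among the Th1 and inflammatory genes, the chemokine Ccl3 rose by 0.84 ± 0.18 (edgeR, adjusted p = 0.0222) and the cytokine Tnf fell by 1.34 in the earlier batches (SE 0.29, adjusted p = 0.0299). In batch 190306, 2 of 21 members fell (Csf2 and Il18r1), against 0.0935% of all genes. Cxcr6, a receptor of tissue-resident T cells, rose by 0.84 ± 0.14 in the earlier batches (edgeR, adjusted p = 0.00398) and was at -0.68 in batch 190306. Ifng, the defining cytokine of Th1 cells, had a negative value in both batches, -0.58 and -1.76, and did not pass (edgeR, adjusted p = 1 in the mean of both). Il10, an anti-inflammatory cytokine, was at 0.72 and -1.33 and did not pass. Ccr1, a receptor for inflammatory chemokines, had between 0.30 and 18.1 CPM and a disagreement of 3.24 ± 0.72 (edgeR, adjusted p = 0.0228).

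Of 18 regulatory T cell genes tested, 1 was higher (Il2ra) and 1 lower (Nt5e) in gut relative to spleen in the earlier batches. The shares over all genes were 3.5% and 2.03%. With anti-IL-2, Il2ra was lower in both tissues of batch 181212, and less so in gut. In batch 190306, 1 rose (Nt5e), against 0.148% of all genes. Foxp3, the defining transcription factor, had 164 CPM in gut anti-IL-2 and 61.8 CPM in gut IgG cells of batch 181212, with 35.1 CPM in spleen anti-IL-2 and 38.4 CPM in spleen IgG cells. In batch 190306 Foxp3 had 54.3 CPM in gut anti-IL-2 and 98.6 CPM in gut IgG cells, with 71.95 CPM in spleen anti-IL-2 and 67.2 CPM in spleen IgG cells. Here the gut libraries differed and the spleen libraries hardly did, in both batches. The values of 1.54 and -0.96 did not pass in the disagreement (2.33 ± 0.54, edgeR adjusted p = 0.0646), and Foxp3 overlaps Ccdc22 and Ppp1r3f on the other strand. Lrrc32, which encodes GARP, a surface carrier of latent TGF-beta on regulatory T cells, was at 1.35 and -2.72, with a disagreement of 4.26 ± 0.75 (edgeR, adjusted p = 0.00699).

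Nt5e, which encodes CD73, an enzyme that makes adenosine, ran opposite to those genes. It had 167 CPM in gut anti-IL-2 and 225 CPM in gut IgG cells of batch 181212, with 134 CPM in spleen anti-IL-2 and 76.3 CPM in spleen IgG cells. In batch 190306 Nt5e had 181 CPM in gut anti-IL-2 and 93.6 CPM in gut IgG cells, with 72.2 CPM in spleen anti-IL-2 and 108 CPM in spleen IgG cells. In each batch the gut and spleen libraries differed in opposite directions, and both directions turned round. Nt5e fell in the earlier batches (-1.13 ± 0.13, edgeR adjusted p = 0.000323), rose in batch 190306 (1.53 ± 0.16, adjusted p = 0.00154) and had a disagreement of -2.66 ± 0.20 (adjusted p = 5.0e-05).

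Follicular helper and memory genes were divided. Bcl6, a repressor that specifies the follicular helper fate, and Id3, an inhibitor of E proteins, were negative in batch 181212 (-0.91 and -0.94) and rose in batch 190306 (1.12 ± 0.20 and 1.33 ± 0.21, edgeR adjusted p = 0.0441 and 0.0321). Cxcr5, the receptor that guides cells to follicles, went the other way: it had 43.6 CPM in gut anti-IL-2 and 5.54 CPM in gut IgG cells of batch 181212, with 216 CPM in spleen anti-IL-2 and 45.2 CPM in spleen IgG cells. In batch 190306 Cxcr5 had 4.09 CPM in gut anti-IL-2 and 47.0 CPM in gut IgG cells, with 79.2 CPM in spleen anti-IL-2 and 228 CPM in spleen IgG cells. Its values were 0.70 and -1.96, with a disagreement of 2.92 ± 0.61 (edgeR, adjusted p = 0.0427), and it overlaps Bcl9l on the other strand. Of 14 follicular helper genes, 1 rose (Pdcd1) and 1 fell (Id3) in the earlier batches, against 3.5% and 2.03% of all genes. In batch 190306, 3 rose (Bcl6, Id3 and Pdcd1), against 0.148%. The disagreement passed for 3, with Cxcr5 higher and Bcl6 and Id3 lower in the earlier batches, against 2.55% and 1.59%. Tcf7, the transcription factor TCF1, was negative in both batches (-0.46 and -0.99) and Tox, a factor of exhausted and helper cells, was near 0 in both (-0.0012 and 0.03), and neither passed. Of 18 naive and memory genes, 2 fell in the earlier batches (Id3 and Lef1, a partner of beta-catenin), against 2.03% of all genes, and 1 rose in batch 190306 (Id3), against 0.148%.

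Among inhibitory receptors and linked genes, 4 of 18 rose in the earlier batches (Cd200r1, Havcr2, Nr4a3 and Pdcd1) and 2 in batch 190306 (Lag3 and Pdcd1), against 3.5% and 0.148% of all genes. Havcr2, which encodes TIM-3, rose by 1.27 ± 0.13 in the earlier batches (edgeR, adjusted p = 0.000249) and was at -0.21 in batch 190306, and Lag3 was at 0.14 in the earlier batches and rose by 0.84 ± 0.15 in batch 190306 (adjusted p = 0.0432). Of 15 residence and gut homing genes, 4 rose in the earlier batches, namely Itga1, a collagen-binding integrin chain, Cxcr6, Gpr55 and Prdm1, and the disagreement passed for the same 4, against 3.5% and 2.55% of all genes. Itga1 had 87.0 CPM in gut anti-IL-2 and 178 CPM in gut IgG cells of batch 181212, with 19.2 CPM in spleen anti-IL-2 and 107 CPM in spleen IgG cells. In batch 190306 Itga1 had 122 CPM in gut anti-IL-2 and 64.3 CPM in gut IgG cells, with 70.4 CPM in spleen anti-IL-2 and 19.95 CPM in spleen IgG cells. The spleen libraries differed by more than the gut libraries in each batch.

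Other genes with opposite values covered several functions. Positive in batch 181212 and negative in batch 190306 were Gzmc, a further granzyme (1.48 and -1.84), Irak3, a brake on Toll-like receptor signalling (1.19 and -1.64), Myadm (1.18 and -1.11), Neil3, a DNA glycosylase of dividing cells (1.02 and -0.95), and Spry2, an inhibitor of receptor tyrosine kinase signalling (0.93 and -1.21). The reverse held for Cacna1d, a calcium channel subunit (-2.38 and 2.09), Rflnb (-1.65 and 1.34), Galnt9, a glycosyltransferase (-1.67 and 1.34), Rgs10, which switches off G protein signalling (-1.41 and 1.18), Plxdc2 (-1.14 and 1.52), Tubb2a, a beta tubulin (-1.99 and 1.10), and Bmp7, a growth factor of the TGF-beta family (-1.09 and 1.41). These were named for opposite values in the batches, so the signs are a description. Rgs10 passed in the earlier batches (-1.36 ± 0.12, edgeR adjusted p = 0.000249) and in batch 190306 (1.19 ± 0.15, adjusted p = 0.00754). Cacna1d overlaps Chdh and Dcp1a and Irak3 overlaps Tmbim4 on the other strand, and the counts of Myadm are uncertain because of an overlap too.

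**Figure D4:**
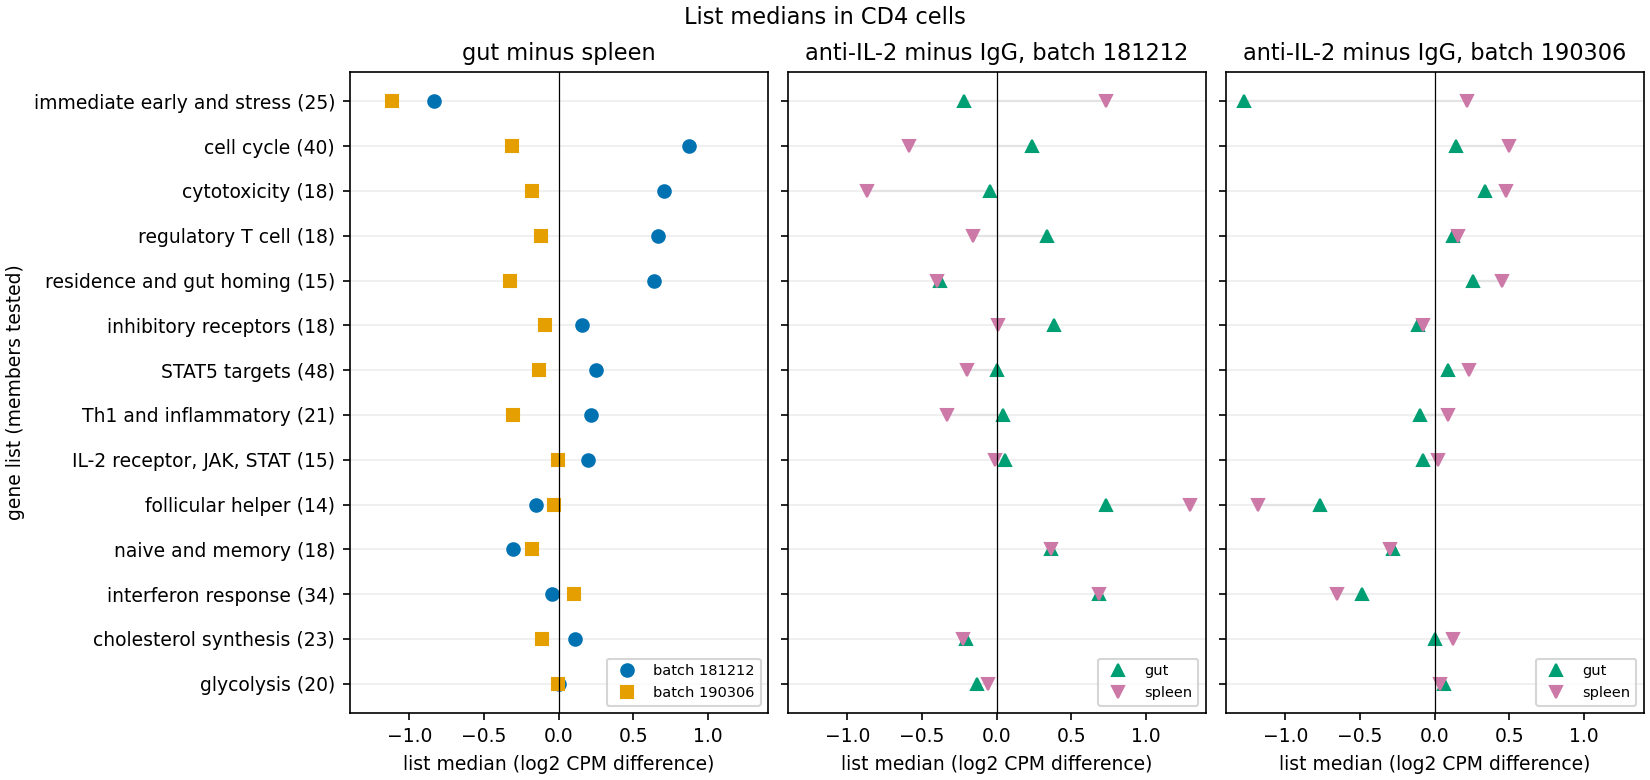
Medians of 14 gene lists, with the number of members tested, as log2 CPM differences. The left panel gives the gut minus spleen treatment difference in batch 181212 (circles) and batch 190306 (squares), and the other panels give its gut and spleen terms in each batch. The immediate early list is negative in both batches (-0.84 and -1.12), the cell cycle list is at 0.87 and -0.31, and the interferon list has gut and spleen terms close to each other in both batches.

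Interferon response genes and Deptor responded to the label in both tissues alike and left little gut minus spleen difference. The further lists of this paragraph are given for their members that passed. The 34 interferon response genes had a median treatment difference of 0.69 in gut and 0.69 in spleen in batch 181212, and of -0.49 in gut and -0.66 in spleen in batch 190306. Their median difference of differences was -0.04 and 0.10, and none passed in the earlier batches or in batch 190306. Isg20, an interferon-induced exonuclease, was the 1 of 34 that passed in the disagreement (-1.29 ± 0.22, edgeR adjusted p = 0.00446), against 1.59% of all genes as lower. Mx1, an antiviral GTPase, was at -0.05 and 0.24. Deptor, an inhibitor of mTOR, had treatment differences of -3.93 in gut and -3.50 in spleen in batch 181212 and of 3.63 in gut and 3.06 in spleen in batch 190306, and a difference of differences of -0.42 and 0.57 that did not pass. Deptor overlaps Gm9920 on the other strand. Rora, a nuclear receptor of Th17 cells, was the 1 member of 11 Th17 genes that passed, falling by 1.35 in batch 190306 (edgeR, adjusted p = 0.000302), against 0.0935% of all genes. Of 20 glycolysis genes, 1 rose and 1 fell in the earlier batches, against 3.5% and 2.03% of all genes. These were Hk2, a hexokinase (0.91), and Pdk1, a kinase that restrains pyruvate dehydrogenase (-0.82). In batch 190306, 1 fell, Slc2a3, a glucose transporter (-0.70), against 0.0935% of all genes. Of 15 IL-2 receptor, JAK and STAT genes, 1 rose (Il2ra) and 1 fell (Stat5b) in the earlier batches, against 3.5% and 2.03% of all genes. Among markers of other cells, Cd68 (1 of 15 macrophage genes) and H2-DMa (1 of 6 MHC class II genes) fell in the earlier batches, against 2.03% of all genes. In batch 190306, 0 passed in edgeR. In the disagreement H2-DMa (-1.59, edgeR adjusted p = 0.0228) and the NK cell marker Klrb1c (-1.52, adjusted p = 0.0328) passed, against 1.59% of all genes as lower. The part of those cells in the disagreement was not tested. H2-DMa overlaps Brd2 on the other strand. Cholesterol synthesis (23 genes), mTOR and amino acid (22), heat shock (12), Th2 (9), interferon-induced transmembrane (5) and T cell identity genes (12) had 0 members past the threshold in edgeR in the earlier batches, in batch 190306 and in the disagreement.

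CD4 and CD8 cells were not shown to differ. The tissue of the CD8 IgG libraries is that of the source name and characteristics, and their descriptions name the other tissue. In CD8 cells the mean of both batches passed for 3 genes, all lower (0.0239%). The CD4 minus CD8 contrast, added after the data were seen, passed for 0 genes in edgeR in the mean of both batches, in the earlier batches and in batch 190306, with 87, 789 and 340 genes at an unadjusted p under 0.05, and no other tool was run on it. For Dusp1 the difference of differences was -2.32 in CD4 and -2.26 in CD8 cells in batch 181212, and -2.44 in CD4 and -2.61 in CD8 cells in batch 190306. Over the 25 immediate early genes the median was -0.84 in CD4 and -0.91 in CD8 cells in batch 181212, and -1.12 in CD4 and -1.16 in CD8 cells in batch 190306. The cell cycle list was at 0.87 in CD4 and 0.47 in CD8 cells in batch 181212, and at -0.31 in CD4 and 0.09 in CD8 cells in batch 190306.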

How the data were processed

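RNA libraries were made with the KAPA Stranded mRNA kit, per the labels' protocols. The deposited table holds raw counts per gene name (24091 names, 97.6% matching GENCODE M21), made by the authors with TopHat2 and HTSeq 0.9.1 on mm10, per the submitters' processing notes. The annotation, strand setting and filters are not given in the sources used here, so overlaps are given for the genes named by rule. Overlaps of the other genes named were not looked up.

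Counts were scaled by TMM, filtered with filterByExpr and tested in edgeR 4.0.16 (R 4.3.3) by the robust quasi-likelihood test, with Benjamini-Hochberg adjustment over all genes tested and a threshold of 0.05. The mean of both batches used the 16 libraries of batches 181212 and 190306. Within each cell type it had terms for batch, treatment, tissue and their pairs, so that the spread is the disagreement between batches (12544 genes, 2 residual degrees of freedom). The other fit used all 22 libraries (12841 genes, 5 residual degrees of freedom). Batches 181201 and 181212 shared 8 group means and a batch term, and batch 190306 had its own 8 means. The earlier gut IgG value rests on batch 181212 alone. In the mean of both batches, CD8 libraries contributed to the CD4 results only through the spread. In the fit of all 22 libraries they also shared the batch term with CD4 libraries. That term enters the CD4 values of the earlier batches and of the disagreement, because gut IgG is in batch 181212 only. The description of each CD8 IgG library names the other tissue. Source name and characteristics were used, and the CD8 values and the spread of both fits depend on that choice. Log2 CPM used a prior count of 2. The fits were tested on simulated counts.

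Libraries of a batch were treated as blocks. The check of pairing was the correlation of the 190306 minus 181212 deviations. It was 0.617 between spleen and gut IgG and 0.778 between spleen and gut anti-IL-2, and between -0.090 and 0.159 for the 4 pairs of different treatment. The check therefore did not show that all libraries of a batch deviate together. Pairs of the same treatment share the labelled difference that turned round between these batches, so their values cannot test the blocks. Some results are not reported here. The members and the 33 gene lists were chosen with earlier results of these data known.

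Genes were named as follows: the 10 with the smallest p in the mean of both batches, up to 8 per direction with the largest opposite values in the 2 batches among genes past 0.05 in the disagreement, 21 panel genes and up to 3 members of each list with the largest values of the smaller batch. Other members, named where a count covers few genes or as examples, were chosen after their values were seen. Alternatives were RLE and upper quartile scaling, no filter, DESeq2 1.42.0, limma voom 3.58.1, other library sets and leaving out each library. The 8 libraries held between 15598591 and 23978193 counts. No molecular identifiers are named in the sources used here, so counting error alone understates the error.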

Additional observations from a re-analysis of the deposited data

Results flagged for a closer look

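The gut minus spleen treatment difference itself differed between the earlier batches and batch 190306, by a test of that difference in edgeR, for 328 genes that were higher and 204 that were lower in the earlier batches. The values here are the earlier batches minus batch 190306, on the log2 scale, and each passed an adjusted p of 0.05.

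Higher in the earlier batches were the cytokine Csf2 (4.01), the granzymes Gzmc (3.49) and Gzmb (2.65), the latent TGF-beta carrier Lrrc32 (4.26), the Toll-like receptor brake Irak3 (2.97), Myadm (2.22), the chemokine receptors Ccr1 (3.24) and Cxcr5 (2.92), the DNA glycosylase Neil3 (2.17), Spry2 (2.50), the cytokine inhibitor Cish (1.37) and the cycling marker Mki67 (1.54).

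Lower in the earlier batches were Cacna1d (-3.95), Rflnb (-3.003), Galnt9 (-2.99), Nt5e (-2.66), Rgs10 (-2.55), Plxdc2 (-2.39), Tubb2a (-3.44) and Bmp7 (-2.72). Ccr1, Gzmc, Lrrc32, Tubb2a and Bmp7 had a mean log2 CPM between 2.02 and 2.16, close to the minimum of 2 for named genes. Each group of batch 190306 holds 1 library, so the spread behind these tests is that of batches 181201 and 181212.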

How the results depend on the processing

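For the mean of both batches the count of 3 genes was unchanged with RLE, upper quartile, no filter and limma voom, and the same 3 passed in DESeq2, which called 18. It was 1 with the 8 CD4 libraries alone, 0 with the 22 libraries and an additive batch, and 1 to 14 with a library left out. With a CD4 library left out, that estimate is the value of the other batch alone and its spread is that of CD8 libraries alone. Without the replicate block (8 groups, no batch term) it was 0, with 89 genes at an unadjusted p under 0.05 in edgeR. Dusp1 passed in 22 of 24 alternatives, and Jun and Zfp36 in 13 each. These counts include the runs with a CD4 library left out, which do not test the CD4 result.

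For the earlier batches the 710 became 421 in DESeq2, 167 in batch 181212 alone, and 275 to 762 with a library left out. For batch 190306 the 31 became 65 with no filter and 10 to 36 with a library left out. For the disagreement the 532 became 324 in DESeq2 and 312 to 557 with a library left out. Plxdc2 passed there in 13 of 22 alternatives, Cxcr5 in 16 of 22, Bmp7 in 19 of 21 and Ccr1 in 20 of 21. The other genes named for opposite values passed in all run. A contrast had no value where the only library of one of its CD4 groups was left out. The percent of genes with the same sign was 30.2% at a size of at least 0.5 and 51.1% at a size of at least 1, and between 41.9% and 42.6% when either the scaling, the prior count or the expression minimum was changed alone. Of the genes rerun under these alternatives, none reversed its direction. The causes of these changes were not tested. With 1 library per group and batch, a difference of differences inside 1 batch has no error of its own.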
